A study of Homo sapiens with 12 samples.

Results

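U251, a cell line grown from a human glioblastoma, was studied for its response to interferon gamma (IFNγ) while stably expressing a short hairpin RNA against INCA1. INCA1 is the name the study gives to a long noncoding RNA whose part in tumour interferon signalling it asks about. The members of the comparison are the 6 shINCA1 libraries of the 12 in the study: 3 from untreated cells and 3 from cells given IFNγ for 24 h. Of 27685 gene symbols, 15769 had enough counts to be tested, and all of them are described here through the contrast of IFNγ-treated with untreated shINCA1 cells. The other 6 libraries came from U251 cells with a control hairpin (shCTRL), 3 untreated and 3 with IFNγ for 24 h, and are used only where the response of the shINCA1 cells is set beside theirs. All 4 groups share the line, passages 14 to 18 and a stably expressed hairpin. As far as the labels tell, each hairpin is represented by 1 line, so a difference between the lines cannot be told apart from a difference between 2 cultures carrying different hairpins. Whether the 3 samples of each group were separate cultures is not stated in the labels, and the p-values therefore measure a spread that may be technical.

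IFNγ binds a receptor made of IFNGR1 and IFNGR2, which bring along the kinases JAK1 and JAK2. The kinases phosphorylate STAT proteins, which pair and bind GAS elements (interferon gamma activated sites) in DNA. Their first targets include the transcription factor IRF1, which, like the complex that holds STAT2 and IRF9, binds the interferon-stimulated response element (ISRE). In most tissues this programme raises antigen presentation, antiviral defence, chemokines that draw T cells, and ligands such as PD-L1 that restrain them. In glioblastoma, whose cells are neural in origin, it is one route by which a tumour cell becomes visible to lymphocytes.

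Promoter sequences of 6 genes that rose are printed first, since they carry these elements in different arrangements. They are those with the largest log2 change among the core and most changed genes that hold an element, 1 per gene family. They are RefSeq windows of GRCh38.p14, from 250 bases before to 50 bases after the start site, given on the gene's own strand. The counts were made on hg19, so the windows illustrate the genes and were not measured here. Capitals mark each match to the ISRE core, GAAA, any 2 bases and GAAA, or to the GAS core, TTCNNNGAA, on either strand. An ISRE on the opposite strand reads as TTTC, any 2 bases and TTTC. Positions below count from the start site, with the first base of the match given.
GBP4: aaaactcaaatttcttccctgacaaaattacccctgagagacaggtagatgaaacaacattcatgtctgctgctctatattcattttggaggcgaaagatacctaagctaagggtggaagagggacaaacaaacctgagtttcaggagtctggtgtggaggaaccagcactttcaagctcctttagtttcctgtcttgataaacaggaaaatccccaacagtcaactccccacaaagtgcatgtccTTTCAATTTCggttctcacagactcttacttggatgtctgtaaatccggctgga
CXCL10: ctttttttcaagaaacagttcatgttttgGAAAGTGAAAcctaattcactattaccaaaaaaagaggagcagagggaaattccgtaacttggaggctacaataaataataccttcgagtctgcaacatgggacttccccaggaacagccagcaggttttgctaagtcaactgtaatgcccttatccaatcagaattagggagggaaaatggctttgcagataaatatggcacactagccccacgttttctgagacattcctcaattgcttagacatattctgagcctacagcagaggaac
IRF1: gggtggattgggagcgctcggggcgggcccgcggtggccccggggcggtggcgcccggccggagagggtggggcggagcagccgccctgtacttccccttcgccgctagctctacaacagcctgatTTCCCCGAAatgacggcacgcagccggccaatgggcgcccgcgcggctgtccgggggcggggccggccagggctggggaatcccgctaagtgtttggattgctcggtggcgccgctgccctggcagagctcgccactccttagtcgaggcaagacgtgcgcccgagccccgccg
TAP1: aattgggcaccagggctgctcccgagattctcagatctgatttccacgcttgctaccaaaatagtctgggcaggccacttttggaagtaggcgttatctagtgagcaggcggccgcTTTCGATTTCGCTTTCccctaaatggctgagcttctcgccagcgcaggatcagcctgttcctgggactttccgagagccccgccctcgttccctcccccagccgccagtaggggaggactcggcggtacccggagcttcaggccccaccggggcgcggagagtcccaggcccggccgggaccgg
CD274: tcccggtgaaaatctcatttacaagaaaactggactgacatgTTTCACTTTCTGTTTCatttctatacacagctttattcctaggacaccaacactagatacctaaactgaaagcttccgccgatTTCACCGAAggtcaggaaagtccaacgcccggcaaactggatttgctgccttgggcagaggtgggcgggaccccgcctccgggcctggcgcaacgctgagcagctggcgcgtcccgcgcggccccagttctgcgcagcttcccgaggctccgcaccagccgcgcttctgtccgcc
SOCS1: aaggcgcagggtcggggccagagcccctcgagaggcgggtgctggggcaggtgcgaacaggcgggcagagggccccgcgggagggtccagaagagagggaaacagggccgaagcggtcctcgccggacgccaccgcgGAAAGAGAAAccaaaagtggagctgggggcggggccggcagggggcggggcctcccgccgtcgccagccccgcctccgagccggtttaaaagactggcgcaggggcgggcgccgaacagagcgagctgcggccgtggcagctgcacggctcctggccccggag
The GBP4 window lies at chr1:89198893-89199192 on the minus strand and holds 1 ISRE core, which starts 4 bases before the start site. CXCL10 lies at chr4:76023448-76023747, minus strand, with 1 ISRE core 221 bases before the start. IRF1, at chr5:132490724-132491023 on the minus strand, holds a GAS core and no ISRE core, 124 bases before the start. The window of TAP1, at chr6:32853655-32853954 on the minus strand, has 2 overlapping ISRE cores, 134 and 128 bases before the start. CD274, the gene of PD-L1, lies at chr9:5450292-5450591 on the plus strand, with 2 overlapping ISRE cores at 208 and 202 bases and a GAS core at 125 bases before the start. That of SOCS1, at chr16:11256155-11256454 on the minus strand, holds 1 ISRE core 113 bases before the start. A match of letters is a description and does not show that a factor binds there.

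The table holds estimated counts, given here as CPM, that is per 1e6 counts of a library total scaled by TMM factors. The 6 libraries held 49088148 to 66242859 estimated counts and 16724 to 17060 genes above 0, and libraries of the same group correlated at 0.984 to 0.987 in log CPM. Changes are log2 fold changes ± their standard error (SE, n = 3 per group). A gene is called raised or lowered at an adjusted p under 0.05 in edgeR's quasi-likelihood test, with Benjamini-Hochberg adjustment over all 15769 genes. Of the glioblastoma markers looked at, VIM, TNC, CD44, SOX9, SOX2 and EGFR were present, SOX2 at 99.6 to 103 CPM with IFNγ. GFAP, S100B, OLIG2 and CHI3L1 did not exceed 1.53 CPM in any shINCA1 library, and ALDH1L1 was at 0 in all 6. Of 22 immune cell markers 4 had enough counts to be tested (CD14, CD68, CSF1R and NCAM1, the last also a neural gene), with log2 changes between -0.47 and 0.13 that did not pass. The summed level of the 22 was 36.1 to 41.7 CPM untreated and 34.7 to 38.0 with IFNγ. Defining immune markers such as PTPRC and CD3E were at 0 in all 6 libraries. The table's symbol INCA1 belongs to a protein-coding gene of that name, at 0.0871, 0.166 and 0.119 CPM untreated and 0.331, 0.102 and 0.167 with IFNγ. The hairpin's target under another name was not analysed here, so the hairpin's effect on it is not checked.

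IFNγ raised 967 genes in shINCA1 cells, which is 6.13% of those tested, and lowered 465, which is 2.95%. In bulk libraries a change in the number of responding cells and in RNA per cell cannot be told apart. The rises were far larger than the falls. At least 2-fold rises numbered 237 (1.5% of genes tested) and at least 8-fold rises 95, while at least 2-fold falls numbered 23 (0.146%). Of the raised genes 604 changed by less than 1.5-fold, as did 406 of the lowered ones. The median log2 change of all tested genes was 0. The balance of small changes depended on the scaling: with upper-quartile factors 815 genes were raised and 733 lowered. Without the third untreated shINCA1 library, 281 genes were lowered.

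**Figure D1:**
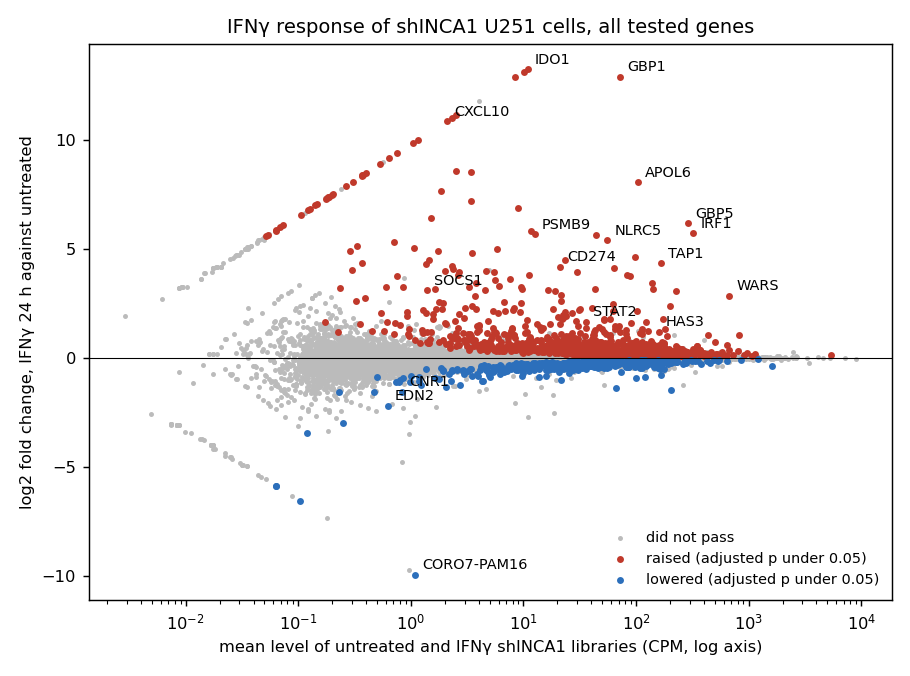
Log2 fold change by IFNγ (vertical axis) against the mean level of untreated and IFNγ-treated shINCA1 libraries in CPM (horizontal log axis), 1 point per tested gene. The 967 raised genes (red) reach far higher than the 465 lowered genes (blue) reach down, and the straight edges at the left are genes at 0 in 1 of the groups, whose plotted value depends on the fitted prior.

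The 237 genes that rose at least 2-fold started from very different levels. In untreated shINCA1 cells 34 of them were at 0 in all 3 libraries, 68 lay above 0 and under 1 CPM, 77 at 1 to under 10 CPM, and 58 at 10 CPM or more. With IFNγ the first class reached a median of 0.466 CPM and at most 21.8, and the last a median of 93.9 CPM. By the way the genes were chosen, those that start low must rise further to be included. The median log2 change was 3.23 above 0 and under 1 CPM, 1.71 at 1 to under 10 and 1.45 at 10 or more. The summed level of the 237 genes was 3236, 3218 and 3163 CPM in the untreated libraries, or 0.316% to 0.324% of the scaled counts. In the IFNγ libraries it was 12794, 12829 and 12887 CPM, or 1.28% to 1.29%. Of the 237 genes 225 were also called raised in shCTRL cells, where 9.72% of all tested genes were.

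A set of 41 gene lists by function was compared with these calls. Lists and members were chosen with earlier results of these data known, so the contrast between them is partly set by that choice. The 25 lists that bear on interferon hold 302 genes, of which 259 were tested, 154 rose and 4 fell. The other 16 lists, on growth, matrix, stress and cell types, hold 267 genes, of which 230 were tested, 22 rose and 31 fell. Among the 237 genes that rose at least 2-fold, 104 are in an interferon list, 3 in another list and 130 in none. Counts over tested genes are descriptions, since a gene that is silent without IFNγ is tested only because it rose in 1 of the lines.

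**Figure D2:**
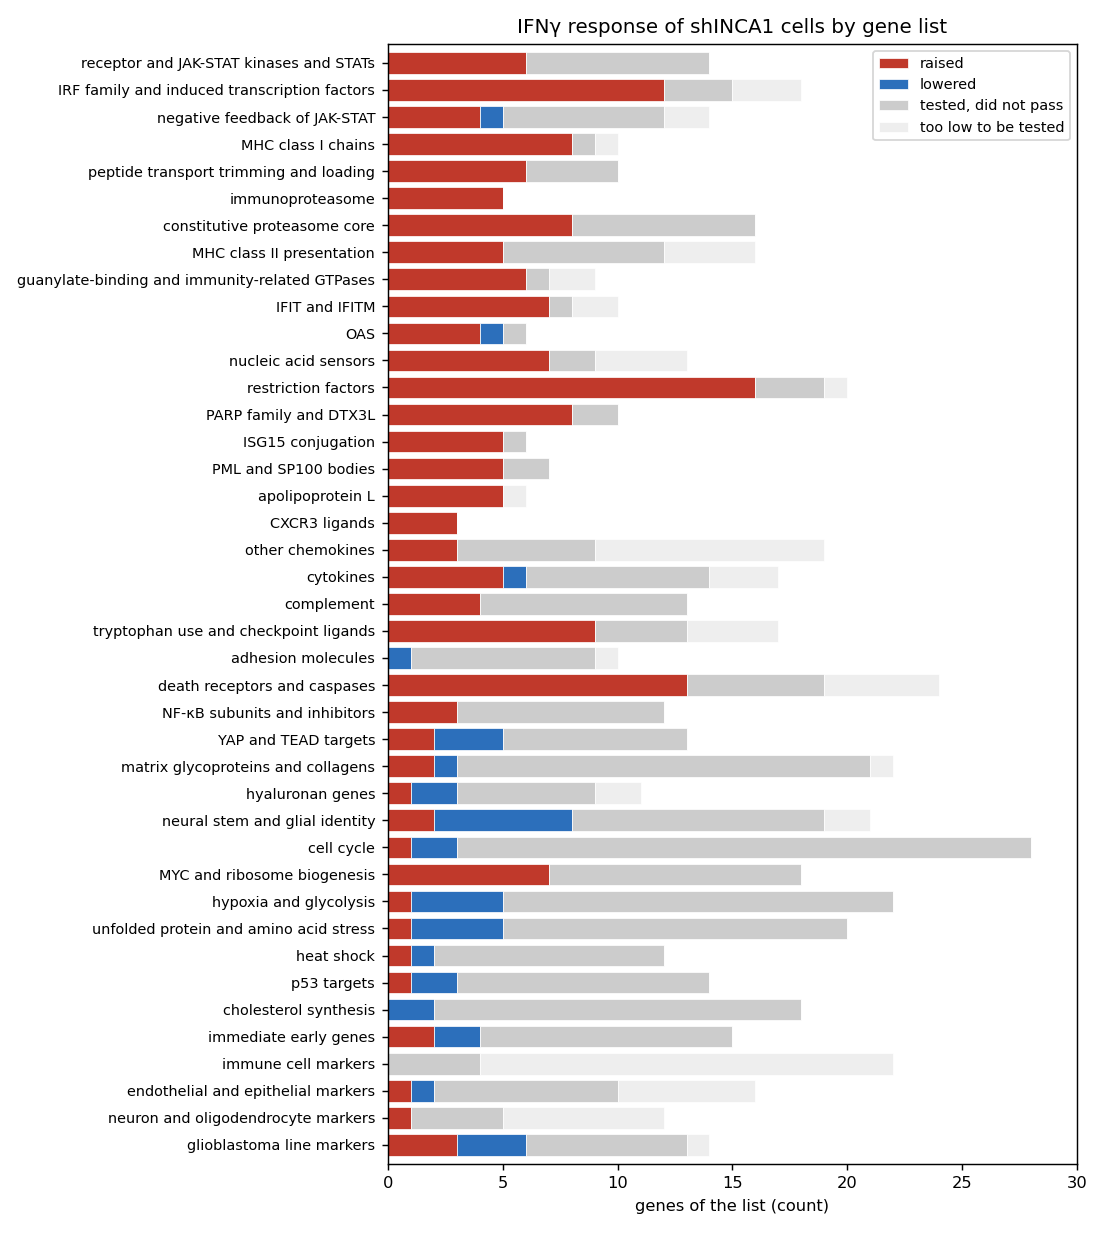
Number of genes of each list (horizontal axis) that were raised (red), lowered (blue), tested without passing (grey) or too low to be tested (light grey) in shINCA1 cells given IFNγ. All 5 immunoproteasome genes were raised, whereas 25 of 28 cell cycle genes did not pass.

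The receptor chains IFNGR1 and IFNGR2 and the kinase JAK1 did not pass the test, while JAK2 and STAT2 rose. Of 14 genes for receptor chains, JAK kinases, STATs and their partner NMI, 6 rose, with a median log2 change of 0.18. For 7 of the 14, the untreated and IFNγ libraries did not overlap, against 24.9% of all tested genes. IFNGR1, the ligand-binding chain, was at 33.2, 38.7 and 35.3 CPM untreated and 36.4, 38.6 and 36.7 with IFNγ. These ranges overlap, and the change of 0.06 ± 0.05 did not pass (adjusted p = 0.638, edgeR). IFNGR2 changed by -0.11 ± 0.05 and JAK1 by -0.04 ± 0.03, and neither passed. JAK2, the other kinase of the receptor, went from 11.6, 11.6 and 10.9 CPM to 19.9, 22.4 and 21.4. All 3 treated libraries were above all untreated ones, a rise of 0.90 ± 0.08 (adjusted p = 1.11e-05, edgeR).

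STAT2, a subunit of the type I interferon complex, went from 17.8, 16.4 and 17.1 CPM to 52.8, 58.6 and 52.8, a rise of 1.68 ± 0.07. The groups did not overlap. NMI, a protein that binds STATs, rose by 2.92 ± 0.05. The type I receptor chains IFNAR1 and IFNAR2 rose by 0.20 ± 0.04 and 0.43 ± 0.05. STAT3 had 1 low untreated library, with 174, 107 and 176 CPM against 170, 175 and 168 with IFNγ, and did not pass.

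The transcription factors that carry the signal onward rose strongly. IRF1, the early target that binds ISREs, was at 12.2, 10.6 and 12.3 CPM untreated and 632, 632 and 620 with IFNγ. The groups lie far apart, with a rise of 5.75 ± 0.06 (adjusted p = 1.96e-14, edgeR). IRF9, the DNA-binding subunit of the complex with STAT2, went from 3.99, 3.67 and 4.27 CPM to 32.8, 36.0 and 33.4, a rise of 3.10 ± 0.11. IRF2, which binds the same element and can oppose IRF1, rose by 1.55 ± 0.10. Of the 15 tested factors 12 rose, with a median log2 change of 2.25. IRF7 was at 0 in all 6 libraries and IRF8 at 0 in 5, while IRF4 and IRF5 were tested and did not pass.

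Both master regulators of antigen presentation genes were among those that rose. NLRC5, the coactivator of MHC class I genes, was at 3.05, 2.13 and 2.48 CPM untreated and at 107, 110 and 108 with IFNγ, a rise of 5.41 ± 0.10. CIITA, the coactivator of class II genes, was at 0 in the 3 untreated libraries and at 16.5, 18.3 and 16.1 CPM with IFNγ. This is at least 349-fold higher, taking the floor of 3 counts in each untreated library. BATF2, a basic leucine zipper factor, was at 0.104, 0.333 and 0.326 CPM untreated and 4.39, 4.65 and 4.41 with IFNγ. ETV7 was at 0 in all but 1 of the shINCA1 libraries, where it stood at 0.0556 CPM. In shCTRL cells it stood at 16.2, 13.6 and 13.9 CPM with IFNγ.

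Genes that turn the pathway down showed a mixed picture. SOCS1, the inhibitor of JAK kinases, went from 0.174, 0.333 and 0.341 CPM to 2.42, 2.63 and 2.44, a rise of 3.12 ± 0.21. SOCS3, a related inhibitor, rose from 20.9, 18.4 and 21.4 CPM to 53.2, 53.1 and 49.6, by 1.36 ± 0.06. USP18, which blocks the type I receptor, rose by 0.55 ± 0.07 and CISH by 0.62 ± 0.09. SOCS2, which acts mainly on growth hormone signalling, fell by 0.45 on the log2 scale (SE 0.06), from 37.3, 39.9 and 37.1 CPM to 30.6, 26.4 and 26.5. The phosphatases PTPN1, PTPN2 and PTPN11 and the inhibitors PIAS1, PIAS3 and PIAS4 were tested and did not pass, with log2 changes between -0.12 and 0.04. Over the 12 tested genes 4 rose and 1 fell.

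**Figure D3:**
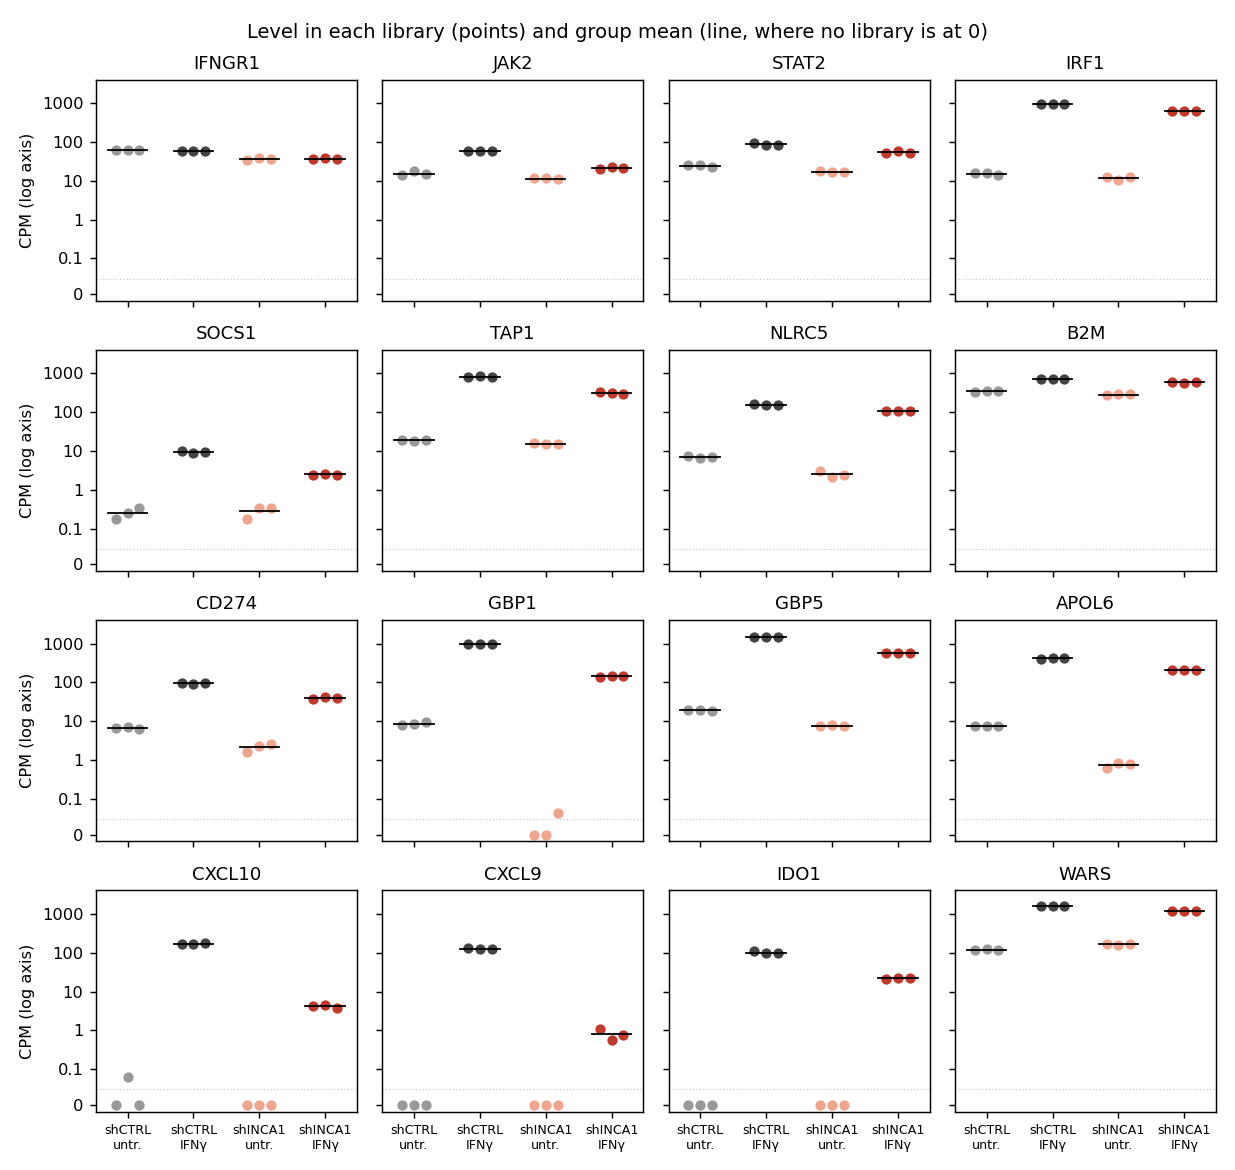
Level of 16 genes in each of the 12 libraries in CPM (vertical log axis, with 0 drawn below the dotted line); points are libraries and bars are group means, drawn where no library is at 0. In shINCA1 cells STAT2, IRF1, NLRC5, GBP5 and APOL6 show treated libraries above all untreated ones, whereas IFNGR1 shows overlapping groups, and CXCL9 and CXCL10 reach far lower levels than in shCTRL cells.

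Of 9 tested genes for class I chains and related molecules 8 rose, against 6.13% of all tested genes. For 8 the groups did not overlap, against 24.9% of all tested genes. HLA-E, a nonclassical chain read by natural killer cells, was at 66.4, 59.8 and 67.3 CPM untreated and 339, 337 and 326 with IFNγ. The groups do not overlap, and the rise of 2.37 ± 0.04 was larger than those of the classical chains HLA-B, at 0.96 ± 0.08, and HLA-C, at 0.67 ± 0.14. B2M, the light chain shared by all of them, went from 278, 290 and 286 CPM to 592, 579 and 590, a rise of 1.04 ± 0.03. MICB, a stress ligand of natural killer cells, rose by 0.81 ± 0.05, and MICA did not pass. HLA genes are near copies of each other, so reads may have been split between them.

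Genes of the peptide pump and its helpers rose in 6 of 10 cases, each at least 2-fold. TAP1, a subunit of the pump that carries peptides to class I molecules, went from 15.9, 15.1 and 15.4 CPM to 323, 320 and 303, a rise of 4.35 ± 0.04 (adjusted p = 1.56e-15, edgeR). Its partner TAP2 went from 82.8, 72.9 and 80.4 CPM to 270, 279 and 266, by 1.79 ± 0.05. The bridging protein TAPBP rose by 1.47 ± 0.05. Peptide trimming enzymes rose too, ERAP1 by 1.73 ± 0.04 and ERAP2 by 3.17 ± 0.06, the latter from 8.83, 9.16 and 7.80 CPM to 74.2, 79.5 and 79.1. The general chaperones of the endoplasmic reticulum CALR, CANX and PDIA3 changed by -0.01 to 0.03 and did not pass.

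Proteasome genes were split by type. All 5 immunoproteasome genes rose, with a median log2 change of 1.80. PSMB9, an induced catalytic subunit, went from 0.610, 0.283 and 0.534 CPM to 24.7, 25.4 and 24.1, a rise of 5.69 ± 0.17. PSMB8 rose by 2.32 ± 0.04, PSMB10 by 1.80 ± 0.07, and the activator subunits PSME1 and PSME2 by 1.31 ± 0.04 and 1.59 ± 0.05. The subunits that PSMB9 and PSMB10 replace, PSMB6 and PSMB7, changed by 0.00 and did not pass. Of the 16 constitutive genes 8 rose, with a median of 0.10 and a largest rise of 0.34 ± 0.07 in PSMA5. That count fell to 4 or 5 with upper-quartile scaling, without a filter on low counts, in a fit of the 6 shINCA1 libraries alone and in 5 of the fits with 1 shINCA1 library left out.

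Class II genes rose in part, from low or no expression except IFI30. Of 12 tested genes 5 rose at least 2-fold and 7 did not pass. CD74, the invariant chain, was at 0 in the untreated libraries and at 1.10, 1.04 and 1.06 CPM with IFNγ, at least 21.9-fold higher. HLA-DRA rose from 0.157, 0.233 and 0 CPM to 2.28, 2.63 and 2.81. IFI30, a lysosomal thiol reductase that prepares class II peptides, was at 24.9, 26.0 and 25.5 CPM untreated and 62.0, 55.6 and 59.2 with IFNγ, a rise of 1.21 ± 0.04. The peptide exchange genes HLA-DMA and HLA-DMB were tested and did not pass. HLA-DQA1 and HLA-DOA were at 0 in all 6 libraries.

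Guanylate-binding proteins, which attack membranes of intracellular microbes, rose in 6 of 7 tested genes of their list, with a median log2 change of 6.21. GBP5 went from 7.51, 8.25 and 7.54 CPM to 574, 571 and 581, a rise of 6.21 ± 0.04. GBP2 rose by 5.67 ± 0.04 and GBP3 by 4.63 ± 0.06. GBP1 was at 0, 0 and 0.0445 CPM untreated, 3 counts in all, and at 141, 143 and 149 with IFNγ. The ratio of the pooled counts was 8902, with a 95% exact interval of 3046 to 43169. GBP4, whose ISRE core sits at the start site, was at 0 untreated and at 21.0, 19.0 and 20.5 CPM with IFNγ, at least 414-fold higher. GBP7 was at 0 in all libraries of these cells, and IRGQ did not pass.

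Apolipoprotein L genes, whose products act on membranes and include the trypanosome-killing APOL1, rose in all 5 tested members. APOL6 was at 0.610, 0.865 and 0.816 CPM untreated and 211, 203 and 205 with IFNγ, a rise of 8.07 ± 0.08 (adjusted p = 7.36e-15, edgeR). APOL2 rose by 3.17 ± 0.05, from 27.4, 27.5 and 29.5 CPM to 256, 251.3 and 253. APOL1 was at 0 untreated and at 4.51, 4.65 and 4.70 CPM with IFNγ, at least 95-fold higher. APOL4 held 3 counts over the untreated libraries and 6.62, 6.42 and 7.43 CPM with IFNγ. Untreated and treated libraries did not overlap in these 5 genes, APOL3 included, against 24.9% of all tested genes.

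Antiviral effectors of the kind usually tied to type I interferon rose as well. Of 8 tested IFIT and IFITM genes 7 rose, with a median of 2.80. IFIT3, which helps IFIT1 bind viral RNA, went from 1.72, 2.36 and 1.80 CPM to 44.0, 45.2 and 45.3, a rise of 4.52 ± 0.11. IFIT2 rose by 3.64 ± 0.07, IFIT1 by 3.31 ± 0.11 and IFIT5 by 1.35 ± 0.03. IFITM1 and IFITM3, which block viral entry, rose by 2.28 ± 0.18 and 3.81 ± 0.26, and IFITM2 by 0.26 ± 0.05. In the OAS family, whose enzymes are switched on by double-stranded RNA, OAS3 rose from 12.7, 14.8 and 13.6 CPM to 42.6, 45.5 and 46. OAS1 and OAS2 were at 0 untreated and reached 0.530 to 0.963 and 0.481 to 0.941 CPM, at least 15.1-fold higher in each.

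Sensors of viral nucleic acid rose in 7 of 9 tested genes. IFIH1, the cytosolic sensor of long double-stranded RNA, went from 3.54, 3.38 and 3.13 CPM to 30.9, 29.9 and 28.0, a rise of 3.14 ± 0.07. TLR3, the endosomal counterpart, rose by 3.27 ± 0.10, and DDX58, the sensor known as RIG-I, by 1.91 ± 0.10. IFI16, which senses DNA, rose by 2.17 ± 0.04 and the kinase EIF2AK2 by 0.80 ± 0.05. MB21D1, the gene of the DNA sensor cGAS, was at 0 in all 6 libraries. The adaptor TMEM173, known as STING, had an adjusted p of 0.048 that rose above 0.05 in 18 of the alternatives, and the adaptor MAVS did not pass.

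Restriction factors rose in 16 of 19 tested genes, with a median of 1.47. TRIM21, an intracellular antibody receptor, went from 6.37, 6.33 and 6.51 CPM to 30.9, 30.2 and 30.2, a rise of 2.25 ± 0.07. SAMHD1, which depletes the building blocks of viral DNA, rose by 1.24 ± 0.03 and BST2, which tethers budding viruses, by 4.02 ± 0.21. SAMD9L was at 0.261, 0.200 and 0 CPM untreated and 17.3, 17.8 and 18.0 with IFNγ. MX1 was low, at 0.435, 0.715 and 0.237 CPM untreated and 1.99, 2.30 and 2.06 with IFNγ. RSAD2 was at 0 untreated and at 0.105, 0.122 and 0 CPM with IFNγ, and did not pass.

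In the PARP list 8 of 10 tested genes rose, in the ISG15 list 5 of 6, and in the list of PML bodies 5 of 7. PARP9 and its partner DTX3L, a ubiquitin ligase pair of the DNA damage and interferon responses, rose by 4.14 ± 0.08 and 3.82 ± 0.05. PARP14 went from 21.9, 24.0 and 23.5 CPM to 240, 256 and 260, and PARP12 rose by 2.20 ± 0.05. PARP1 and PARP2, the DNA repair members, did not pass. ISG15, a ubiquitin-like modifier, rose by 1.57 ± 0.10, its activating enzyme UBA7 by 4.50 ± 0.28 and its conjugating enzyme UBE2L6 by 3.97 ± 0.12. The main ISG15 ligase of human cells, HERC5, was at 33.1, 35.1 and 32.1 CPM untreated and 31.4, 33.1 and 32.2 with IFNγ and did not pass. PML rose by 2.15 ± 0.08 and SP100 by 1.28 ± 0.05, while DAXX and ATRX of the same bodies did not pass.

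All 3 ligands of the T cell receptor for chemokines CXCR3 rose from 0, to low levels. CXCL10 was at 4.27, 4.59 and 3.74 CPM with IFNγ, at least 86.3-fold above the floor of the untreated libraries. CXCL11 was at 1.60, 2.37 and 2.24 CPM, at least 42.5-fold higher, and CXCL9 at 1.10, 0.551 and 0.741 CPM, at least 16.4-fold higher. In IFNγ-treated shCTRL cells the same genes stood at 165, 163 and 176 CPM for CXCL10, 29.6, 34.8 and 35.7 for CXCL11, and 130, 128 and 121 for CXCL9. The ranges of the 2 lines do not overlap for any of the 3. No fold of the difference in response is given, since untreated cells of both lines are at or near 0.

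Other secreted signals rose in smaller number. Of 9 other tested chemokines 3 rose: CCL2, a monocyte attractant, by 0.94 ± 0.13, CX3CL1 by 0.37 ± 0.07 and CXCL16 by 0.27 ± 0.06. CCL5 was at 0 in all 6 libraries, and CXCL8 did not pass. CSF1, the growth factor of macrophages, went from 13.4, 10.9 and 12.2 CPM to 154, 173 and 171, a rise of 3.77 ± 0.08. It is 1 of 5 genes that rose among 14 tested cytokines. IL15, which sustains T and natural killer cells, rose by 3.25 ± 0.20, IL7 by 2.27 ± 0.19, IL6 by 1.20 ± 0.16 and IL18BP, a decoy that binds IL18, by 2.32 ± 0.17. LIF fell by 0.23 (SE 0.05), with an adjusted p of up to 0.0737 (edgeR) when 1 library was left out. IL18 itself was at 30.5, 29.6 and 28.8 CPM untreated and 30.4, 32.6 and 32.6 with IFNγ and did not pass. In the complement list 4 of 13 tested genes rose, among them C1S by 2.56 ± 0.23 and C1R by 1.11 ± 0.17. C4A and C4B were at 0 in all 6 shINCA1 libraries. A further symbol, C4B_2, rose by 2.64 ± 0.67, from a mean of 0.0908 CPM to 0.557. Its rise was not called in 8 of 20 alternatives.

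Among genes of tryptophan use and ligands that restrain lymphocytes, 9 of 13 tested rose. CD274 was at 1.62, 2.28 and 2.60 CPM untreated and at 37.0, 42.9 and 40.2 with IFNγ, a rise of 4.2 ± 0.13. PDCD1LG2, the second ligand of PD-1, went from 0.906, 0.599 and 0.519 CPM to 9.45, 11.9 and 9.76, by 3.95 ± 0.19. IDO1, the enzyme that breaks down tryptophan, was at 0 untreated and at 20.9, 22.4 and 22.1 CPM with IFNγ, at least 448-fold higher. WARS, the tryptophanyl transfer RNA synthetase, went from 163, 160 and 165 CPM to 1188, 1172 and 1207, a rise of 2.87 ± 0.02. LGALS9 rose by 2.28 ± 0.12, and CD47, a signal against phagocytosis, by 0.80 ± 0.05. TDO2 and KYNU of the same tryptophan route did not pass. Costimulatory CD80 was at 0 in all 6 libraries.

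Of 9 tested adhesion genes 1 was called: CD44, a hyaluronan receptor, changed by -0.10 ± 0.02 and was not called without 1 or another untreated library (adjusted p up to 0.0520, edgeR). ICAM1, an endothelial and tumour ligand of lymphocytes, was at 0, 0.0499 and 0.0890 CPM untreated and 0.105, 0.184 and 0 with IFNγ. VCAM1 was at 0 untreated and 0.0523, 0.0612 and 0 with IFNγ. In shCTRL cells IFNγ left ICAM1 at 1.33, 1.43 and 1.36 CPM and VCAM1 at 15.1, 14.4 and 13.0.

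Death receptors, caspases and their partners rose in 13 of 19 tested genes, with a median of 0.57. FAS, a death receptor, went from 5.38, 4.97 and 4.32 CPM to 16.6, 15.5 and 17.8, a rise of 1.77 ± 0.09. TNFSF10, the ligand known as TRAIL, rose by 2.41 ± 0.14 and CASP1, the inflammatory caspase, by 4.22 ± 0.31. CASP4 and CASP8 rose by 1.16 ± 0.05 and 0.79 ± 0.05. The survival factor MCL1 also rose, by 0.57 ± 0.04, from 285, 294 and 268 CPM to 421, 417 and 421. BAX, BID and BCL2 did not pass. In the NF-κB list 3 of 12 genes rose, against 6.13% of all tested genes, BCL3 by 1.21 ± 0.09. The rise of RELA, another of these, was not called in 17 of the alternatives. The feedback inhibitors NFKBIA and TNFAIP3 did not pass.

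Growth, identity and stress lists held changes in both directions, most of them under 2-fold. Of all tested genes 6.13% rose and 2.95% fell. The few calls in the cell cycle list do not set it apart from these shares. Of 28 cell cycle genes 1 rose and 2 fell: CCND1, cyclin D1, rose by 0.25 ± 0.03, from 329, 312 and 318 CPM to 391, 377 and 372. MKI67, a marker of cycling cells, was at 477, 521 and 471 CPM untreated and 470, 499 and 514 with IFNγ and did not pass. With upper-quartile factors or the DESeq2 Wald test 5 of the 28 fell. The stem cell factor SOX2 rose by 0.32 ± 0.04, from 83.9, 78.1 and 80.6 CPM to 99.6, 103 and 101. SOX9, a glial and neural crest factor, fell by 0.50 (SE 0.04), from 211, 206 and 205 CPM to 147, 151 and 142. SOX4, HES1, CD24 and PDGFRA fell too, by 0.40, 0.43, 0.35 and 0.49. Of the 19 tested genes of that list 2 rose and 6 fell.

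Among YAP and TEAD targets 2 rose and 3 fell of 13, against 6.13% and 2.95% of all tested genes. THBS1, a matrix protein that activates TGF-β, was at 1824, 1889 and 1788 CPM untreated and 1413, 1412 and 1401 with IFNγ, a fall of 0.38 (SE 0.02). CTGF fell by 0.44 (SE 0.04), while CYR61, a close relative of it, rose by 0.32 ± 0.03. HAS3, a hyaluronan synthase, stood at 116, 113 and 58.3 CPM untreated and 220, 226 and 221 with IFNγ, a rise of 1.21 ± 0.19, with 1 untreated library low. TNC, tenascin C, rose by 0.24 ± 0.03. Of 18 MYC and ribosome genes 7 rose, and 4 in a fit of the 6 shINCA1 libraries alone. MYC itself went from 14.9, 10.8 and 13.9 CPM to 20.6, 22.3 and 20.9, by 0.69 ± 0.10.

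In the hypoxia list NDRG1 fell by 0.46 (SE 0.07) and PFKFB3 by 0.21 (SE 0.03), and of 22 genes 4 fell and 1 rose. Beside the 6.13% raised and 2.95% lowered of all tested genes, such small counts, here and below, are descriptions of single genes. ATF3, a stress-induced factor, rose by 1.59 ± 0.13, from 8.20, 8.78 and 8.95 CPM to 27.0, 25.6 and 25.2, while ATF4 and DDIT3 of the same stress list did not pass. Of the 20 genes of that list 1 rose and 4 fell: DDIT4 by 0.48 (SE 0.09), HERPUD1 by 0.18 (SE 0.04), SLC7A11 by 0.15 (SE 0.03) and SLC7A5 by 0.13 (SE 0.03). Of 12 heat shock genes DNAJA1 rose by 0.74 ± 0.03 and DNAJB1 fell by 0.13 (SE 0.03). Of 14 p53 targets PMAIP1, the death protein NOXA, rose by 1.19 ± 0.04, and BTG2 and CDKN1A fell by 0.43 (SE 0.08) and 0.15 (SE 0.04). The fall of CDKN1A was not called in 9 of the alternatives. Of 18 cholesterol genes 2 were called, both lowered, INSIG1 by 0.23 (SE 0.04).

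The 23 genes that fell at least 2-fold were mostly weakly expressed: 19 of them had a mean under 5 CPM in untreated shINCA1 cells. EDN2, an endothelin, was at 0.871, 1.15 and 1.04 CPM untreated and 0.139, 0.367 and 0.167 with IFNγ, a fall of 2.19 (SE 0.40). CNR1, a cannabinoid receptor, fell by 1.54 (SE 0.21), NDP, a ligand of Frizzled receptors, by 1.33 (SE 0.15), and VWF, von Willebrand factor, by 1.25 (SE 0.23). Markers of endothelial and epithelial cells summed to 255 to 277 CPM untreated and 287 to 291 with IFNγ, mostly KRT18, and their part in the fall of VWF was not tested. SOX5, a neural factor, went from 5.68, 5.40 and 6.14 CPM to 3.57, 2.0 and 2.80, and FLRT3, an axon guidance receptor, from 6.10, 5.82 and 5.67 to 3.05, 3.02 and 2.44. The read-through symbol CORO7-PAM16 was at 2.02, 1.86 and 2.69 CPM untreated and 0 in the 3 treated libraries, at least 39.0-fold lower, and shares its exons with both named genes. HIGD1A, at 97.2, 97.1 and 94.0 CPM untreated and 38.7, 33.7 and 37.5 with IFNγ, was not called in 12 of the alternatives. Its shCTRL libraries ranged from 52.4 to 152 CPM within groups.

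Many strongly raised genes are in none of the lists. The following were chosen after their values were seen. RARRES3 was at 0 untreated and at 5.84, 4.71 and 4.44 CPM with IFNγ, at least 103-fold higher, and UBD, a ubiquitin-like protein of antigen-presenting cells, at least 26.2-fold higher. The butyrophilins BTN3A1, BTN3A2 and BTN3A3, read by γδ T cells, rose by 3.18 ± 0.17, 2.54 ± 0.15 and 3.96 ± 0.14, though reads may be split between these near copies. CEACAM1, an inhibitory adhesion molecule, rose by 5.01 ± 0.34 and IL15RA, the receptor chain that presents IL15, by 3.61 ± 0.35. The RNA-binding antiviral proteins DDX60, ZC3HAV1 and ADAR rose by 3.82 ± 0.16, 1.66 ± 0.04 and 1.06 ± 0.02. NNMT, an enzyme of nicotinamide methylation, rose by 2.63 ± 0.08, from a mean of 5.98 CPM to 37.0. PSMB8-AS1 rose by 5.84 ± 0.14, but it overlaps PSMB8 in antisense and how the counting treated strand is not stated.

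Interferon elements were more frequent in promoter windows of the strongly raised genes than in the others. Windows were found for 161 of the 237 genes that rose at least 2-fold. An ISRE core was in 55 of these 161 windows, or 34.2% (95% Wilson interval 27.3% to 41.8%). It was in 7.77% of 592 windows of the other raised genes and 2.42% of 372 windows of lowered genes. In 10959 windows of tested genes that were not called the share was 2.21%, and in all 27305 windows 3.65%. A GAS core was in 24 windows, or 14.9% (10.2% to 21.2%). The share was 8.61% in other raised genes, 5.91% in lowered genes, 6.19% in genes not called and 7.88% of all windows. The GAS share depended on the spacing: with 4 bases in the middle in place of 3 it was 6.21% in the strongly raised genes and 6.37% of all windows. The cyclic AMP element TGACGTCA, searched as a motif with no link to interferon, was in 0 of the 161 (Wilson upper bound 2.33%) and in 1.98% of all windows. It was in 3.21% of windows of other raised genes and 3.25% of those of genes not called, both above that bound. This motif was therefore not equally frequent in the classes either. Of the 161 windows 68 held an ISRE or GAS core and 11 held both, and 11.1% of all windows held either. The windows of STAT2, SOCS3, JAK2, WARS, UBD and CD74 held neither, which says only that these letters are not within these 300 bases.

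**Figure D4:**
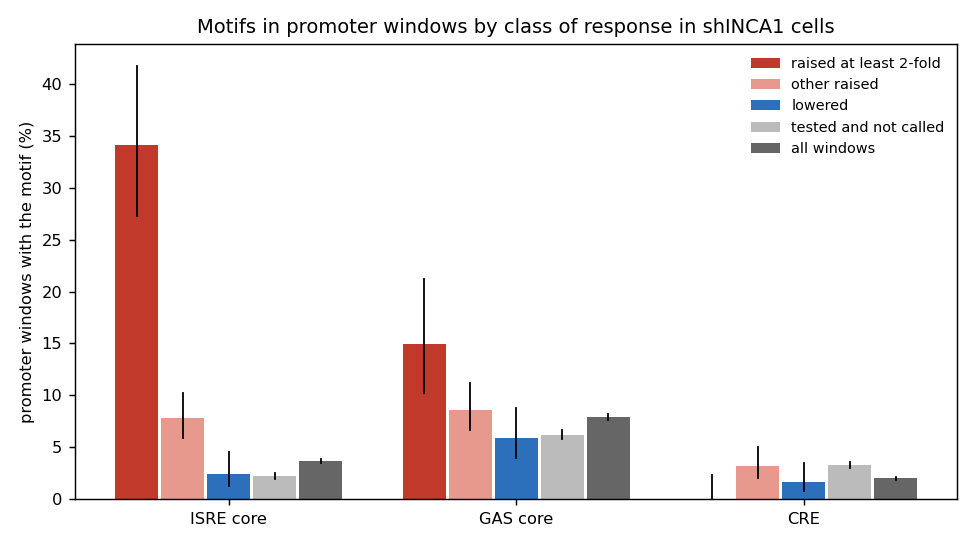
Share of RefSeq promoter windows (vertical axis, %) that hold the ISRE core, the GAS core or the cyclic AMP element, by class of response in shINCA1 cells; bars are shares and lines 95% Wilson intervals. The ISRE share is 34.2% in genes raised at least 2-fold and 2.42% in lowered genes, and the cyclic AMP element was found in none of the 161 windows of the first class.

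The response of the shINCA1 cells was then set beside that of the shCTRL cells, gene by gene, with a test of the difference of the 2 log2 changes. It was higher in shINCA1 cells for 97 genes (0.615% of those tested) and lower for 173 (1.1%). Of the 237 genes that rose at least 2-fold, 18 had a larger log2 rise in shINCA1 cells, 33 a smaller one, and 186 were not called. The 186 are not shown to respond alike. They include genes at or near 0 without IFNγ, which this test cannot decide, such as CXCL9, whose difference had an SE of 11279. Some of the 18, such as OAS1 and TAPBPL, were at 0 in untreated shINCA1 cells, so their log2 rise depends on the fitted prior. Of all 967 raised genes, 35 were higher and 119 lower. The summed level of the 237 genes, chosen in shINCA1 cells, was 3910 to 3957 CPM in untreated shCTRL libraries and 21618 to 21983 with IFNγ, above every shINCA1 library of the same treatment. Leaving out 1 library moved the count of lower differences to as few as 95 (without the third untreated shINCA1 library) and of higher ones to as few as 57 (without the third IFNγ shINCA1 library).

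**Figure D5:**
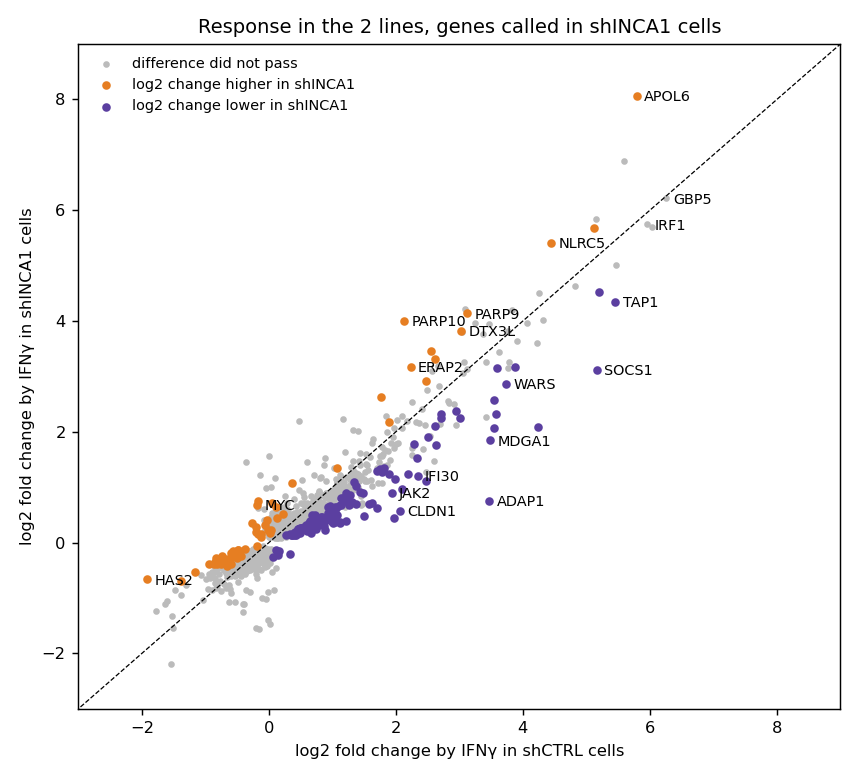
Log2 fold change by IFNγ in shINCA1 cells (vertical axis) against that in shCTRL cells (horizontal axis) for 1371 genes called in shINCA1 cells and at 0.1 CPM or more in all 4 groups. Orange and purple points are genes whose difference passed the test, with the log2 change in shINCA1 cells higher or lower; APOL6 lies far above the diagonal, and TAP1, SOCS1 and JAK2 below it, while GBP5 and IRF1 did not pass.

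At the top of the pathway the lines differed in JAK2 and SOCS1. JAK2 rose by 0.90 in shINCA1 and 1.94 in shCTRL cells, a difference of -1.04 ± 0.11 (adjusted p = 5.27e-04, edgeR). SOCS1 rose by 3.12 and 5.17, a difference of -2.05 ± 0.32 (adjusted p = 0.00672, edgeR). IRF1 differed by -0.21 ± 0.07 and IRF9 by 0.52 ± 0.14, neither passing in edgeR, though both passed in the DESeq2 Wald test (adjusted p = 0.00543 and 0.0188).

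Antigen presentation differed in both directions. TAP1 rose less in shINCA1 cells by 1.11 (SE 0.04), TAP2 by 0.50 (SE 0.07), HLA-B by 1.14 (SE 0.12), HLA-E by 0.57 (SE 0.06) and IFI30 by 1.13 (SE 0.06). NLRC5 rose more, by 0.97 ± 0.12, from a lower start: shCTRL cells went from 7.51, 6.68 and 7.07 CPM to 161, 151 and 151. ERAP2 also rose more, by 0.94 ± 0.07. In all 3 IFNγ libraries of shCTRL cells NLRC5, ERAP2 and TAP1 were nonetheless above every shINCA1 library. B2M, PSME1, PSME2 and CD274 differed by -0.02, -0.01, 0.06 and 0.37 and did not pass.

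Effector genes with a larger log2 rise in shINCA1 cells included APOL6, at 2.28 ± 0.10, PARP10, at 1.88 ± 0.23, PARP9, at 1.02 ± 0.10, and DTX3L, at 0.79 ± 0.06. Each started lower in shINCA1 cells: APOL6 was at 7.69, 7.70 and 7.34 CPM in untreated shCTRL cells and reached 413, 427 and 419 with IFNγ. For these 4 genes the level with IFNγ was also lower in every shINCA1 library than in every shCTRL library. Smaller rises in shINCA1 cells were found for SAMHD1, at -0.95 ± 0.04, WARS, at -0.86 ± 0.03, FAS, at -0.87 ± 0.12, and TRIM21, at -0.77 ± 0.09. CLDN1, a tight junction gene, rose by 0.58 in shINCA1 and 2.07 in shCTRL cells, a difference of -1.49 ± 0.10. WARS was at 120, 122 and 119 CPM in untreated shCTRL cells, below the shINCA1 libraries, and at 1626, 1620 and 1552 with IFNγ, above them.

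The 97 higher and 173 lower differences also include genes outside the interferon lists, of which only a few are given here. MYC rose by 0.69 in shINCA1 cells and changed by -0.18 in shCTRL cells, a difference of 0.87 ± 0.14 (adjusted p = 0.00856, edgeR). ANKRD1, a YAP target, changed by 0.10 without passing in shINCA1 cells and fell by 0.83 in shCTRL cells, a difference of 0.93 ± 0.04. HAPLN3, a hyaluronan link protein, changed by -0.62 without passing in shINCA1 cells and rose by 3.53 in shCTRL cells. ANKRD1 and HAPLN3 were chosen after their values were seen. In all, 8 genes were called in opposite directions in the 2 lines, with log2 changes of at most 0.35 in shINCA1 cells. The largest was ZNF706, which rose by 0.35 ± 0.07 in shINCA1 cells and fell by 0.26 (SE 0.07) in shCTRL cells.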

How the data were processed

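RNA was sequenced from 12 libraries of U251 cells (TruSeq stranded mRNA, per the labels' protocols). The deposited table holds an estimated count per gene symbol. FastQC, Trimmomatic, HISAT2, StringTie and hg19 are named, per the submitters' processing notes; for versions, annotation, strand setting and the counting step the notes give nothing. Values of 3, 6, 9 and 12 are each more frequent than their neighbours, so 1 fragment may stand for about 3 estimated counts, and intervals and floors, which cover counting error only, are too narrow. The design assumed raw counts; the values were whole, so the same test was kept.

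Genes were kept by filterByExpr (15769), scaled by TMM and fitted in edgeR 4.0.16 (R 4.3.3) with the quasi-likelihood test, two-sided, over all 12 libraries with 1 coefficient per group. P-values were adjusted by Benjamini-Hochberg over all genes tested, at 0.05. The fit was tested on simulated data. The changes put in were 1.5-fold and 2-fold in genes well above 0, so rises from near 0 were not covered. The difference between lines is the contrast of the 2 responses. Totals were 46525032 to 66242859. A fold against a group at 0 uses a floor of 3 counts per library, and one against 1 to 9 counts the ratio of pooled counts with a 95% exact interval. Neither a fold nor a difference between lines is given where both groups are that low.

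Named genes were 25 core genes, the 15 most raised and 15 most lowered at 1 CPM or more without overlap, up to 4 genes per list by smallest p, the 8 most positive and negative differences, and list members that did not pass. Members and lists were chosen with earlier results of these data known. Alternatives were DESeq2 1.42.0 factors and Wald test, upper-quartile factors, other filters, limma-voom (limma 3.58.1), glmTreat, a stricter threshold, 6 libraries alone, a replicate block, each library left out and, added after seeing the data, counts divided by 3. Some named genes are left out of the text. Counts over lists and over all genes still include them. Counts of alternatives for a single gene are out of 21, without glmTreat and the stricter threshold. Promoter windows were matched by symbol for 12084 of 15768 tested symbols.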

Additional observations from a re-analysis of the deposited data

Results flagged for a closer look

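The log2 response to IFNγ differed between shINCA1 and shCTRL cells for 48 of the named genes. The test was edgeR's quasi-likelihood test of the difference, with Benjamini-Hochberg adjustment over all genes. Only genes called in shINCA1 cells with more than 9 counts in each shINCA1 group were taken. GBP1, OAS1 and CORO7-PAM16, with fewer counts in a group, are therefore not among the 48. Their differences also passed (adjusted p = 2.10e-06, 0.0144 and 2.34e-04, edgeR), but the sizes depend on few or no counts. Each value below is the response in shINCA1 cells minus that in shCTRL cells, on the log2 scale, so a negative value means a smaller rise or a larger fall in shINCA1 cells, except for CDKN1A, which was lowered in shINCA1 and raised in shCTRL cells.

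Among signalling, regulatory and feedback genes the difference was -2.05 for SOCS1, -1.04 for JAK2, -4.05 for BATF2, -0.46 for SP110, -0.42 for SP100, 0.45 for NMI and 0.97 for NLRC5. In antigen presentation it was -1.14 for HLA-B, -1.13 for IFI30, -1.11 for TAP1, -0.57 for HLA-E, -0.50 for TAP2, -0.40 for PSMB8 and 0.94 for ERAP2. Among antiviral and membrane effectors it was -0.95 for SAMHD1, -0.77 for TRIM21, -0.70 for APOL2, -0.68 for IFIT3, -0.60 for DDX58, -0.47 for TRIM25, -0.46 for IFIT5 and -0.44 for IFIH1. In the same group it was higher in shINCA1 cells by 0.28 for IFI16, 0.55 for GBP2, 0.69 for IFIT1, 0.79 for DTX3L, 1.02 for PARP9, 1.88 for PARP10 and 2.28 for APOL6.

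For secreted factors and complement the difference was -1.37 for C1R, -1.25 for IL18BP, -0.67 for CX3CL1 and -0.42 for CXCL16. For immune regulation and cell death it was -0.87 for FAS and -0.86 for WARS. Among growth, matrix and other genes it was -2.72 for ADAP1, -1.64 for MDGA1, -1.52 for CHD5, -1.49 for CLDN1, -0.34 for CCND1, -0.31 for CDKN1A, -0.24 for CRIM1 and -0.21 for TNC. It was 0.38 for CYR61, 0.38 for THBS1, 0.42 for SOX4, 0.87 for MYC and 1.25 for HAS2. THBS1, SOX4 and HAS2 were lowered in both lines, less so in shINCA1 cells.

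BATF2 was near 0 in untreated shCTRL cells, so the size of its difference depends on a few counts. With 1 library left out, it ranged from -7.93 to -3.48.

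Some calls were lost when any of several libraries was left out. Of the 12 fits with 1 library left out, the call was lost in 11 for IFIT3. It was lost in 10 each for DDX58, IFI16 and IFIT1, and in 8 each for TNC and IFIH1. For BATF2 it was lost in 1. With all libraries the adjusted p was 0.04999 (edgeR) for both DDX58 and IFIT3, just under the threshold. With 1 library left out the highest adjusted p (edgeR) was 0.142 for DDX58, 0.137 for IFIT3, 0.134 for IFI16, 0.128 for TNC, 0.0999 for IFIH1 and 0.0915 for IFIT1. It was 0.0709 for CXCL16, 0.0702 for CRIM1, 0.0694 for IL18BP, 0.0675 for CDKN1A, 0.0637 for HAS2, 0.0582 for BATF2 and 0.0533 for SP110. With limma-voom, GBP2, PARP10, C1R and CHD5 were not called (adjusted p = 0.0916, 0.0819, 0.0636 and 0.0569).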

How the results depend on the processing

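There were 23 alternatives. The responses of the named genes, which were not put through glmTreat, kept their direction in the others, and 159 of their values lost the call. The lowered genes, 465 in all, numbered 733 with upper-quartile factors, 718 with the DESeq2 Wald test and 195 at an adjusted p of 0.01. Against a minimum fold of 2 (glmTreat) 153 genes were raised and 1 lowered. Genes lowered at least 2-fold numbered 6 with a filter of 5 CPM, where fewer genes were tested, 35 with DESeq2 and 9 at 0.01. Higher and lower differences between the lines numbered 192 and 317 with DESeq2 and 42 and 71 at 0.01. The cause was not tested. Leaving out 1 library gave 756 to 954 raised, 281 to 481 lowered, 226 to 239 raised and 15 to 27 lowered at least 2-fold, and 57 to 92 higher and 95 to 154 lower differences. Lower differences numbered 112 and 115 without the second untreated or first IFNγ shCTRL library, and 100 without the second IFNγ library of either line. With counts divided by 3, added after seeing the data, 926 were raised and 543 lowered.

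The GAS share of strongly raised genes was 6.21% with 4 spacer bases. Differences near 0 that were never called changed sign: with 1 library left out, the difference ranged from -0.0484 to 0.0108 for B2M and from -0.00124 to 0.127 for SOCS3.

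Deviations from the group means correlated at 0.0160 to 0.0232 between same-numbered libraries of the shINCA1 groups. Not every library correlated best with its own number. The numbers thus gave no clear pairing, though 3 libraries per group cannot settle whether the samples were paired. With a replicate block 943 genes were raised and 432 lowered, and 88 and 149 differences were higher and lower. Genes near the floor of 3 counts per library, 0.0487 CPM in untreated shINCA1 cells, cannot be ranked by fold.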
